A study of Gallus gallus with 6 samples.

Results

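The EGF family was described as 10 genes, 7 ligands (EREG, AREG, HBEGF, TGFA, BTC, EGF and NRG1) and 3 receptors (EGFR, ERBB2 and ERBB3), taken by gene symbol from a table of 27656 genes. All 10 were found, each on a single row, and all 10 passed the filter on low counts. The data are RNA-seq of cells sorted as ileal macrophages from broiler chickens with KUL01, an antibody to a chicken mannose receptor. There were 3 libraries of birds given both lipopolysaccharide (LPS, an inflammatory molecule of the bacterial outer membrane) by injection and Lactobacillus reuteri by gavage, labelled LPS+LR21, and 3 libraries of birds that received the LPS injection alone. Both groups therefore carried the LPS challenge, and birds without LPS were not analysed here. The labels give no age, sex, strain or dose, and LR21 is spelled here as they spell it. The LPS+LR21 libraries are called by their columns, LR1_2, LR3 and LR4, and the LPS libraries LPS1, LPS2 and LPS3.

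EGF family ligands are made as membrane-anchored precursors, and proteases of the ADAM family cut them free so that they can act on neighbouring cells. EREG, AREG, HBEGF, TGFA, BTC and EGF bind EGFR, and NRG1 binds ERBB3 and ERBB4. ERBB2 has no known ligand of its own and signals as the partner of the other receptors, while ERBB3 has little kinase activity and depends on such a partner. In the mammalian intestine EGF receptor signalling sustains the dividing stem cells at the crypt base, and ligands can reach them from epithelial, stromal and immune cells. The series poses the question of how macrophages and intestinal stem cells communicate when L. reuteri is given.

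The libraries did not differ by group alone. Total counts lay between 31284679 and 45492503, and LR3 had a count for 18811 genes, the fewest of the 6 libraries, against 22493 to 24539 in the others. Of 32 tested epithelial markers 7 rose with LPS+LR21 and the other 25 missed the threshold, at a median log2 fold change of 2.07. All 32 were fitted above 0, 27 of them at an unadjusted p under 0.05 by edgeR. Of the 32, 27 passed without LR3, 26 with library quality weights (limma-voom) and 25 with DESeq2. Of all tested genes 0.974% were called higher by edgeR, and 7.46% were higher at an unadjusted p under 0.05. Without LR3 and with quality weights, 4.83% and 5.11% were called higher. DESeq2 called 8.44% higher of the 11874 genes to which it gave an adjusted p. The summed level of the epithelial markers was 1835 to 8457 FPKM in the LPS+LR21 libraries, where LR3 was lowest, and 588 to 1071 FPKM in the LPS libraries. FPKM are fragment counts scaled to gene length and library total. In LR1_2, LR3 and LR4 the epithelial cell adhesion molecule gene EPCAM stood at 700.2, 201 and 619 FPKM, against 102, 71.3 and 72.2 FPKM in LPS1, LPS2 and LPS3. Epithelial transcripts were therefore present in every library of the sort. Of 24 tested macrophage markers, VSIG4 fell and 23 did not pass (median log2 fold change -1.32). All 24 were fitted below 0, 18 of them at an unadjusted p under 0.05 by edgeR. Of the 24, 22 passed without LR3, 22 with quality weights and 10 with DESeq2. Of all tested genes 0.0819% were called lower by edgeR, 3.82% without LR3 and 4.32% with quality weights. The summed level of the macrophage markers was 2649 to 6208 FPKM in the LPS+LR21 libraries, where LR3 was highest, and 8045 to 10009 FPKM in the LPS libraries. CSF1R, whose product is the macrophage growth factor receptor, had 58.7, 164 and 92.4 FPKM in LR1_2, LR3 and LR4, against 286, 346 and 284 FPKM in the LPS libraries. Of 16 tested fibroblast and smooth muscle markers 3 fell (8 passed without LR3), and of 55 tested markers of 6 other cell classes none passed (edgeR; 12 had an unadjusted p under 0.05, DESeq2 called 2, and 5 passed without LR3). No epithelial or macrophage marker was at 0 in a whole group, while TBX21, GFAP and HBA1, markers of T cells, glia and erythrocytes, had no count in the LPS+LR21 libraries. TBX21 was also at 0 in LPS2 and LPS3, had 10 counts in LPS1 and was not tested. In such bulk libraries fewer cells of a type and less RNA per cell cannot be told apart.

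EREG, AREG and the receptors EGFR, ERBB2 and ERBB3 had higher fitted levels in the LPS+LR21 libraries, by 2.84-fold to 4.20-fold, but none of the 10 genes passed the test across all genes. The other 5 ligands had lower fitted levels. At an adjusted p under 0.05 (edgeR's quasi-likelihood F-test, Benjamini-Hochberg adjusted over 20745 genes), 0 of 10 members were called, beside 1.06% of all tested genes. At an unadjusted p under 0.05, 5 of 10 were higher, beside 7.46% of all tested genes. The calls depended on LR3. Without that library, EREG, AREG, EGFR, ERBB2 and ERBB3 passed, 5 of 10 members beside 4.83% of all tested genes called higher. Only LR1_2 and LR4 stood for LPS+LR21 in that fit, which left out the LPS+LR21 library lowest for these 5 genes. Its standard errors and adjusted p therefore omit the spread that LR3 adds. Without any 1 of the other libraries no member passed, and no gene of the whole table did. DESeq2 on all 6 libraries called 4 of 10 members higher (EREG, EGFR, ERBB2 and ERBB3), and gave BTC, EGF and NRG1 no adjusted p. Of the 11874 genes to which DESeq2 gave an adjusted p, 8.44% were called higher. limma-voom with library quality weights, which gave LR3 the lowest weight, called EREG, AREG, EGFR, ERBB2 and ERBB3 higher, 5 of 10 members beside 5.11% of tested genes. With all 6 libraries, edgeR with other scalings or filters and limma-trend on log2 FPKM called 0 members.

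**Figure D1:**
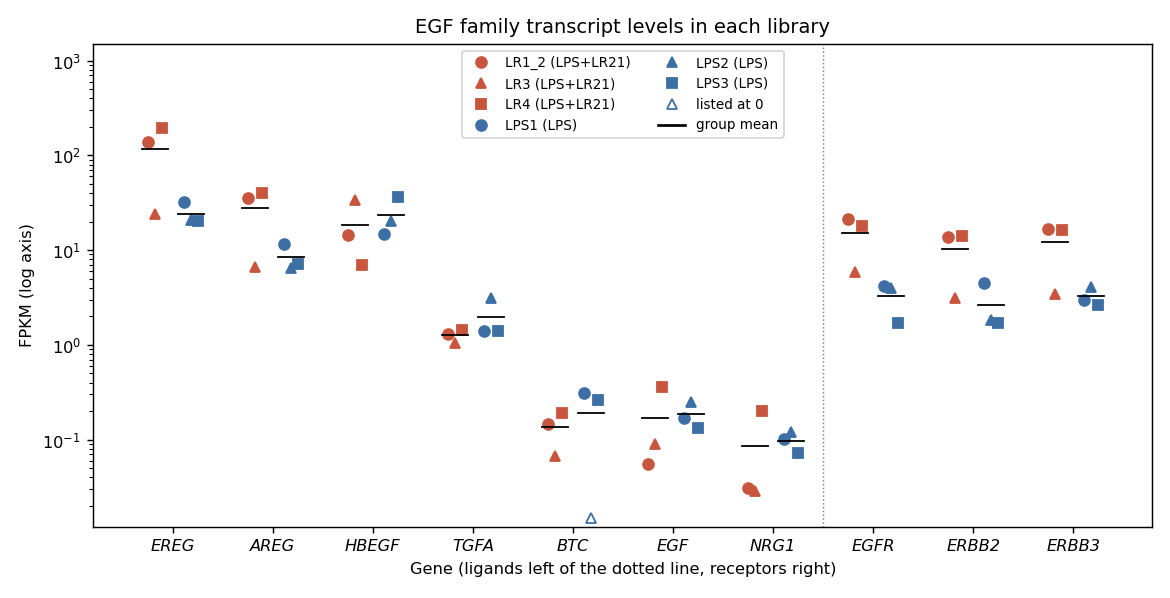
FPKM (log axis) of the 10 EGF family genes in each library, with LPS+LR21 in red left of LPS in blue; symbols mark the libraries, black lines the group means, and the open symbol a value listed at 0. For EREG, AREG, EGFR, ERBB2 and ERBB3 the libraries LR1_2 and LR4 lie above all LPS libraries, while LR3 lies above them for EGFR alone.

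Epiregulin, the product of EREG, is an EGFR ligand that macrophages and other cells make in inflamed and regenerating tissue in mammals. EREG (ENSGALG00010003322, chromosome 4, 44301364 to 44309370, plus strand) was measured at 137, 24.2 and 193 FPKM in LR1_2, LR3 and LR4, against 32.2, 20.6 and 20.2 FPKM in LPS1, LPS2 and LPS3. LR1_2 and LR4 stood well above every LPS library, and LR3 lay inside the LPS range, so the groups overlapped. The means were 118 ± 86.1 FPKM in the LPS+LR21 libraries and 24.4 ± 6.84 FPKM in the LPS libraries (SD, n = 3 each). The fitted log2 fold change was 2.07 ± 0.59 (SE), with an adjusted p of 0.148 by edgeR. Without LR3 it was 2.64 ± 0.31 (adjusted p = 0.00133 by edgeR), while leaving out any other library gave an adjusted p of 0.296 to 0.480.

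AREG encodes amphiregulin, another EGFR ligand tied to tissue repair in mammals. AREG (ENSGALG00010003223, chromosome 4, 44319344 to 44326328, plus strand) was measured at 35.7, 6.71 and 40.1 FPKM in LR1_2, LR3 and LR4, against 11.7, 6.48 and 7.13 FPKM in LPS1, LPS2 and LPS3. LR3 was again inside the LPS range. The means were 27.5 ± 18.2 FPKM in the LPS+LR21 libraries and 8.45 ± 2.87 FPKM in the LPS libraries (SD, n = 3 each), and the fitted log2 fold change was 1.51 ± 0.56 (SE, adjusted p = 0.283 by edgeR). Without LR3 it was 2.06 ± 0.34 (adjusted p = 0.00480 by edgeR), while leaving out any other library gave an adjusted p of 0.389 to 0.771.

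EREG and AREG are neighbours, with 9.97 kb between them, and for both LR4 was highest, LR1_2 next and LPS1 highest of the rest. The FPKM ratio of EREG to AREG came to 3.85, 3.60 and 4.81 in LR1_2, LR3 and LR4, against 2.75, 3.19 and 2.83 in LPS1, LPS2 and LPS3. This ratio varied by 1.75-fold over the 6 libraries, whereas EREG itself spanned 20.2 to 193 FPKM. The ratio was higher in every LPS+LR21 library, LR3 included, than in any LPS library. How often other gene pairs separate in this way was not tested. EPGN, which encodes the EGFR ligand epigen and lies 14.5 kb before EREG on the same strand, stayed low. Its counts were 0, 45 and 51 in LR1_2, LR3 and LR4, against 35, 31 and 29 in the LPS libraries. In FPKM these were 0, 0.366 and 0.540, against 0.286, 0.267 and 0.215. The log2 fold change of EPGN was 0.06 ± 1.51 (SE) by edgeR. USO1, which encodes a vesicle tethering factor and lies 34.5 kb after AREG on the opposite strand, had 5.49, 5.47 and 4.24 FPKM in LR1_2, LR3 and LR4, against 4.20, 4.92 and 3.54 FPKM in the LPS libraries. Its log2 fold change was 0.15 ± 0.32 (SE, adjusted p = 0.948 by edgeR). Of these 4 neighbours, EREG and AREG were thus above every LPS library in both LR1_2 and LR4. USO1 was above them in LR1_2 and LR3, and EPGN in LR3 and LR4. For EPGN the SE was far larger than the fitted value, so no change could be judged.

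HBEGF encodes heparin-binding EGF-like growth factor, a ligand of EGFR and ERBB4 that activated macrophages make in mammals. HBEGF (ENSGALG00010008688, chromosome 13, 277280 to 283826, plus strand) was measured at 14.6, 33.9 and 6.88 FPKM in LR1_2, LR3 and LR4, against 14.8, 20.5 and 36.0 FPKM in LPS1, LPS2 and LPS3. Its order among the LPS+LR21 libraries was the reverse of that of EREG, with LR3 highest and LR4 lowest. The means were 18.5 ± 13.9 FPKM in the LPS+LR21 libraries and 23.8 ± 11.0 FPKM in the LPS libraries (SD, n = 3 each). The log2 fold change of -0.43 ± 0.60 (SE, adjusted p = 0.903 by edgeR) was smaller than its error. Without LR3 it was -1.20 ± 0.54 (adjusted p = 0.276).

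The remaining ligands were scarce. TGFA (chromosome 22, 3447000 to 3460751, minus strand), which encodes transforming growth factor alpha, had 1.31, 1.05 and 1.45 FPKM in LR1_2, LR3 and LR4, against 1.40, 3.09 and 1.40 FPKM in LPS1, LPS2 and LPS3. LPS2 alone lay apart, and the log2 fold change was -0.76 ± 0.62 (SE, adjusted p = 0.774 by edgeR). BTC (chromosome 4, 34195236 to 34199257, plus strand), which encodes betacellulin, had 17, 7 and 15 counts in LR1_2, LR3 and LR4, against 32, 0 and 30 counts in LPS1, LPS2 and LPS3. A count of 0 in LPS2 allows up to 0.0779 CPM (counts scaled to the library total), which covers counting error only. EGF (chromosome 4, 57540516 to 57592169, minus strand), the founding member of the family, had 13, 19 and 58 counts in the LPS+LR21 libraries, against 35, 50 and 31 in the LPS libraries. NRG1 (chromosome Z, 54642190 to 55109686, minus strand), which encodes neuregulin 1, had 17, 14 and 75 counts in the LPS+LR21 libraries, against 49, 55 and 39 in the LPS libraries. For EGF and NRG1, LR4 was above and LR1_2 and LR3 were below every LPS library. Standard errors of the log2 fold changes of BTC, EGF and NRG1 were 1.64, 1.11 and 1.08, larger than the fitted values of -0.71, -0.35 and -0.42, so differences of such sizes were not detectable at these counts.

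**Figure D2:**
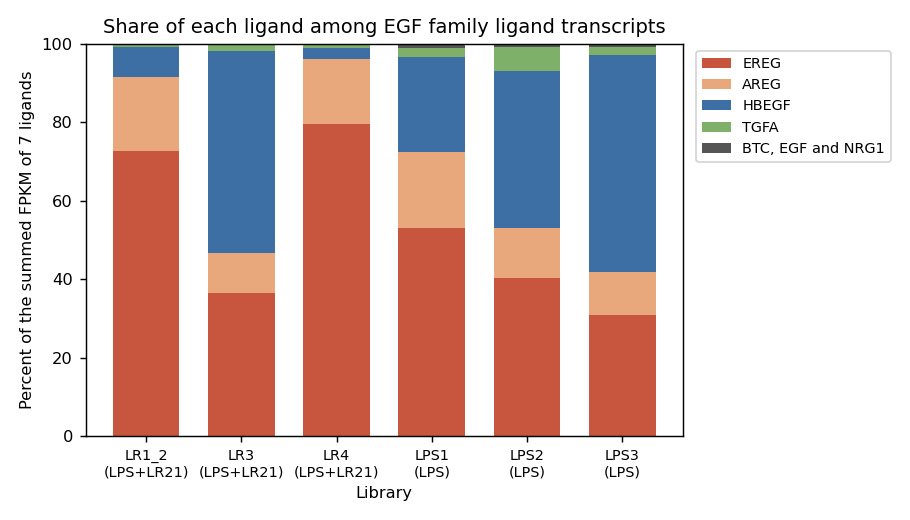
Percent of the summed FPKM of the 7 ligands taken by each ligand in each library, LPS+LR21 left and LPS right. EREG took 72.6% in LR1_2 and 79.7% in LR4, and HBEGF took 51.4% in LR3 and 55.2% in LPS3.

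EREG or HBEGF was the most abundant ligand transcript in every library. The summed ligand level came to 189, 66.0 and 242 FPKM in LR1_2, LR3 and LR4, against 60.8, 51.1 and 65.1 FPKM in LPS1, LPS2 and LPS3. EREG made up 72.6%, 36.6% and 79.7% of that sum in LR1_2, LR3 and LR4, against 53.0%, 40.4% and 31.0% in LPS1, LPS2 and LPS3. HBEGF made up 7.70%, 51.4% and 2.84% in LR1_2, LR3 and LR4, against 24.4%, 40.1% and 55.2% in the LPS libraries. By composition LR3 thus lay within the LPS range for both. BTC, EGF and NRG1 each took at most 0.51% of the ligand sum in any library. EREG ranked at percentile 98.0 of tested genes by mean FPKM in the LPS+LR21 libraries and at percentile 92.7 in the LPS libraries. NRG1 ranked at percentile 8.44 and 6.91 in the LPS+LR21 and LPS libraries.

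EGFR, the receptor of most ligands in the family, was the 1 member whose groups did not overlap. EGFR (ENSGALG00010007381, chromosome 2, 51815505 to 52072433, minus strand) was measured at 21.1, 5.89 and 17.9 FPKM in LR1_2, LR3 and LR4, against 4.13, 4.02 and 1.70 FPKM in LPS1, LPS2 and LPS3. Groups without overlap were found for 1 of 10 members, beside 19.3% of tested genes with an FPKM in either direction and 12.2% in the direction of EGFR. The means were 15.0 ± 8.03 FPKM in the LPS+LR21 libraries and 3.28 ± 1.38 FPKM in the LPS libraries (SD, n = 3 each). The log2 fold change was 2.03 ± 0.50 (SE), and its adjusted p of 0.0951 by edgeR was the lowest among the members. Without LR3 it was 2.51 ± 0.39 (adjusted p = 0.00357 by edgeR), while leaving out any other library gave an adjusted p of 0.219 to 0.363.

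ERBB2 (ENSGALG00010024479, chromosome 27, 4224344 to 4234272, plus strand) was measured at 13.8, 3.15 and 14.2 FPKM in LR1_2, LR3 and LR4, against 4.45, 1.83 and 1.71 FPKM in LPS1, LPS2 and LPS3. ERBB3 (ENSGALG00010024829, chromosome 34, 1373721 to 1390651, plus strand) had 16.9, 3.46 and 16.2 FPKM in LR1_2, LR3 and LR4, against 2.98, 4.10 and 2.66 FPKM in LPS1, LPS2 and LPS3. For both co-receptors LR3 was inside the LPS range and the other LPS+LR21 libraries were above it. ERBB2 averaged 10.4 ± 6.26 FPKM in the LPS+LR21 libraries and 2.67 ± 1.55 FPKM in the LPS libraries (SD, n = 3 each), and edgeR gave a log2 fold change of 1.77 ± 0.57 (SE) at an adjusted p of 0.205. ERBB3 averaged 12.2 ± 7.55 FPKM in the LPS+LR21 libraries and 3.25 ± 0.759 FPKM in the LPS libraries (SD, n = 3 each), and edgeR gave a log2 fold change of 1.73 ± 0.51 (SE) at an adjusted p of 0.157. Without LR3 these values were 2.30 ± 0.43 for ERBB2 (adjusted p = 0.00878) and 2.26 ± 0.32 for ERBB3 (adjusted p = 0.00238). Leaving out any other library gave an adjusted p of 0.198 to 0.640 for ERBB2 and 0.314 to 0.577 for ERBB3 by edgeR.

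The FPKM ratio of EGFR to ERBB2 was 1.53, 1.87 and 1.26 in LR1_2, LR3 and LR4, against 0.927, 2.19 and 0.993 in LPS1, LPS2 and LPS3, with overlap. Of the summed FPKM of the 3 receptors, EGFR took 40.8%, 47.1% and 37.2% in LR1_2, LR3 and LR4, against 35.7%, 40.4% and 28.0% in LPS1, LPS2 and LPS3. The ratio of EGFR to ERBB3 was 1.25, 1.70 and 1.11 in LR1_2, LR3 and LR4, against 1.39, 0.980 and 0.639 in the LPS libraries. EGFR shares the first 193 bases of the gene with SEC61G on the opposite strand, and ERBB2 shares 1118 bases with PGAP3 and 318 bases with MIEN1, also on the opposite strand, and holds a miRNA gene. With the strand setting not given in the sources used here, reads in these stretches could come from either gene. None of the 7 ligand genes overlapped another gene of the table.

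**Figure D3:**
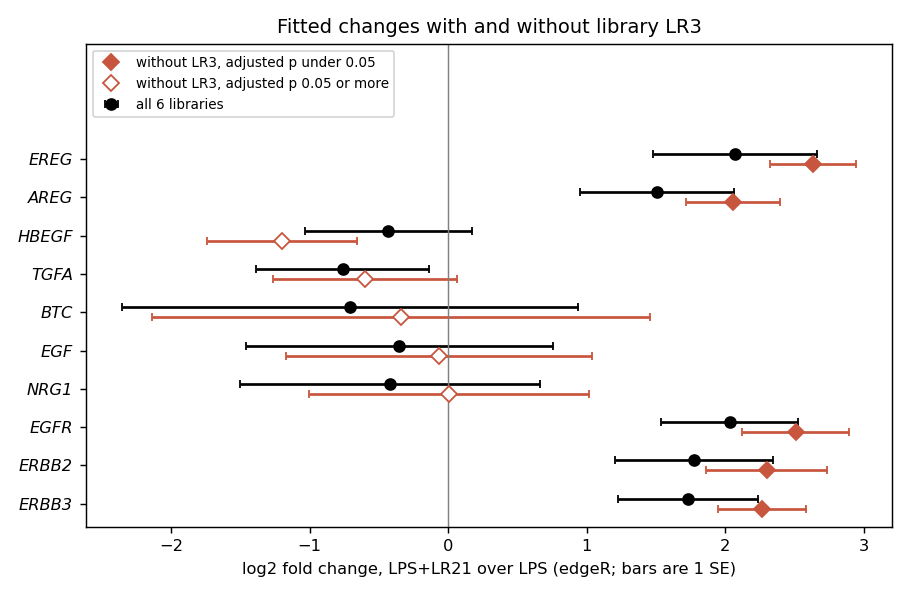
Fitted log2 fold changes (LPS+LR21 over LPS) with bars of 1 SE, from all 6 libraries (black) and without LR3 (red; filled where the adjusted p was under 0.05). EREG, AREG, EGFR, ERBB2 and ERBB3 lie between 1.51 and 2.07 with all libraries and between 2.06 and 2.64 without LR3. The other 5 ligands lie at or below 0.01 in both fits. In the fit without LR3 only LR1_2 and LR4 stand for LPS+LR21, so its bars omit the spread that LR3 adds. When any library other than LR3 was left out (not drawn), no member passed.

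In both groups the order of levels put EREG first and the scarce ligands last. In the LPS libraries EREG and HBEGF had overlapping ranges, AREG came next and was apart from both HBEGF above it and EGFR below it, and EGFR, ERBB3 and ERBB2 each overlapped the next in line, down to TGFA. TGFA was apart from BTC, which overlapped EGF, and EGF was apart from NRG1. In the LPS+LR21 libraries the ranges of EREG, AREG, HBEGF, EGFR and ERBB3 each overlapped that of the next, down to ERBB2. TGFA was apart from ERBB2 above it and EGF below it, and below it EGF overlapped BTC and BTC overlapped NRG1.

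Markers of epithelium and of macrophages also differed between the libraries, and the members followed the medians of these markers in part only. Against the LPS mean, the median epithelial marker stood at log2 ratios of 2.77, 0.74 and 2.51 in LR1_2, LR3 and LR4. EGFR stood at 2.68, 0.84 and 2.45 in the same libraries. EREG stood at 2.50, -0.01 and 2.99, and AREG at 2.08, -0.33 and 2.25. LR3 was thus above the LPS mean for the median epithelial marker and at or below it for these ligands. Single epithelial markers differed from that median. LR3 was below the LPS mean for LGR5 (1.34 against 1.40 FPKM), KRT18 (15.8 against 17.2) and TJP3 (1.48 against 2.18). It was also below for TMPRSS15 (0.183 against 0.418 FPKM) and TFF3 (0 against 2.13 FPKM). For every other tested epithelial marker LR3 was above the LPS mean, EPCAM among them (201 against 81.9 FPKM). LGR5, KRT18, TJP3, TMPRSS15 and TFF3 were picked out after their values were seen. The median macrophage marker stood at -2.03, -0.48 and -1.69, and HBEGF at -0.71, 0.51 and -1.79. The part of cell composition in the members' differences was not tested.

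**Figure D4:**
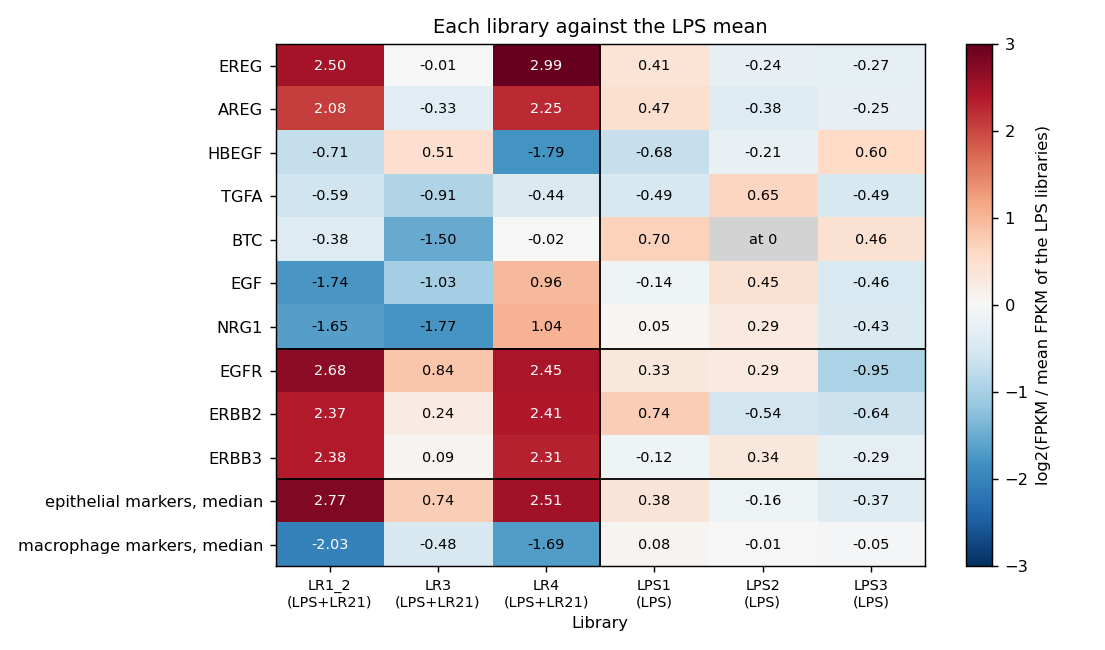
log2 ratio of each library's FPKM to the mean of the LPS libraries, for the 10 members and for the medians of 32 epithelial and 24 macrophage markers, LPS+LR21 left and LPS right; the grey cell is a value at 0. LR1_2 and LR4 reach 2.08 to 2.99 for EREG, AREG and the 3 receptors, and LR3 reaches at most 0.84 for any member.

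Relative to EPCAM, the members' higher levels in the LPS+LR21 libraries were not seen, but EPCAM itself rose more than any member. On the log2 scale edgeR put EPCAM at 2.46, against 1.51 for AREG up to 2.07 for EREG. A ratio to EPCAM therefore tends to be lower for genes that rose less. Over the 32 tested epithelial markers the fitted values ran from 0.68 (TFF3) to 3.08 (APOA4), with a median of 2.07. Ratios to other epithelial markers were not tested. EREG had 0.196, 0.120 and 0.312 FPKM per FPKM of EPCAM in LR1_2, LR3 and LR4, against 0.316, 0.289 and 0.279 in LPS1, LPS2 and LPS3. EGFR had 0.0302, 0.0293 and 0.0290 in the LPS+LR21 libraries, inside the LPS range of 0.0235 to 0.0564. AREG, ERBB2 and ERBB3 had lower ratios in every LPS+LR21 library than in any LPS library, as did 68.8% of tested genes. ERBB3, for example, had 0.0172 to 0.0261 per FPKM of EPCAM in the LPS+LR21 libraries and 0.0292 to 0.0575 in the LPS libraries. Relative to CSF1R, EREG had 2.34, 0.148 and 2.09 in LR1_2, LR3 and LR4, against 0.113, 0.0597 and 0.0709 in LPS1, LPS2 and LPS3. Those groups did not overlap, which held for 46.7% of tested genes in that direction. HBEGF relative to CSF1R had 0.248, 0.207 and 0.0745 in LR1_2, LR3 and LR4, against 0.0517, 0.0593 and 0.127 in the LPS libraries, with overlap.

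By pattern over the 6 libraries, FBXO2, PGLS and ECH1 were the genes most like EREG, the ligand of highest mean level, with Pearson correlations of log2(CPM + 0.5) of 0.999, 0.994 and 0.992. CISD1, DST and ARHGAP5 were most like EGFR, the receptor of highest mean level, at 0.997, 0.996 and 0.996. They were the top of 8230 genes compared, of which 205 reached 0.95 for EREG and 304 for EGFR, and all these values share the same 6 libraries and the contrast of LR1_2 and LR4 with the rest. A correlation does not measure the size of a change. By edgeR the log2 fold changes of FBXO2, PGLS and ECH1 were 1.38, 0.19 and 1.13. Those of CISD1, DST and ARHGAP5 were 1.18, 1.52 and 0.71, and none of these genes passed. DST, which encodes the cytoskeletal linker dystonin, had 6.86, 2.85 and 6.19 FPKM in LR1_2, LR3 and LR4, against 1.87, 1.97 and 1.15 FPKM in the LPS libraries.

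The rest of the pathway was read from 5 lists of 110 symbols, 93 of which were in the table and tested. ADAM19 fell, 0 rose and 92 did not pass. DESeq2 called 2 of the 93 lower, beside 359 lower among the 11874 genes to which it gave an adjusted p. At an unadjusted p under 0.05 by edgeR, 6 of the 93 were higher and 14 lower. Of all 20745 tested genes, 1547 (7.46%) were higher at that level, and 2502 differed in either direction. The counts per list below have the same background. Without LR3, 4 pathway genes passed higher and 6 lower, beside 4.83% and 3.82% of all tested genes. With library quality weights 1 passed higher and 11 lower, beside 5.11% and 4.32%. Calls by edgeR with all libraries made up 0.974% of all tested genes higher and 0.0819% lower. The 93 pathway genes had a median log2 fold change of -0.22, beside -0.14 over all tested genes. ADAM19, a metalloprotease that can process neuregulins in mammals (ENSGALG00010015002), was measured at 0.610, 0.707 and 1.20 FPKM in LR1_2, LR3 and LR4, against 2.34, 5.37 and 3.50 FPKM in LPS1, LPS2 and LPS3. Every LPS+LR21 library was below every LPS library, and LR3 did not stand apart. The log2 fold change was -2.31 ± 0.42 (SE, adjusted p = 0.0429 by edgeR). This call was lost with library totals, on log2 FPKM and without any 1 of the libraries other than LR3.

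ADAM17, the main protease that frees EREG, AREG, HBEGF and TGFA in mammals, was picked out after its values were seen. It had 0.537, 0.499 and 1.07 FPKM in LR1_2, LR3 and LR4, against 1.13, 1.96 and 1.61 FPKM in the LPS libraries, with a log2 fold change of -1.33 and an adjusted p of 0.239 by edgeR. RHBDF2, which encodes the ADAM17 partner iRhom2 and was picked out likewise, had 1.48, 3.76 and 0.926 FPKM in LR1_2, LR3 and LR4, against 5.62, 5.77 and 4.97 FPKM in the LPS libraries (adjusted p = 0.284 by edgeR; 0.0115 without LR3). CNIH4, which encodes a cargo receptor for the export of membrane proteins and was picked out likewise, went the other way, with 10.9, 5.89 and 8.68 FPKM in LR1_2, LR3 and LR4, against 4.65, 2.82 and 4.32 FPKM in the LPS libraries (log2 fold change 0.96, adjusted p = 0.258 by edgeR). ADAM10, also named after its values were seen, had the highest mean level of the listed ADAM genes in both groups. It had 24.6, 25.3 and 22.1 FPKM in LR1_2, LR3 and LR4, against 26.7, 21.9 and 26.6 FPKM in the LPS libraries. Its log2 fold change was -0.19 (adjusted p = 0.910 by edgeR). Of 13 tested shedding and trafficking genes 1 fell and 12 did not pass, with a median of -0.55. At an unadjusted p under 0.05 by edgeR, 4 were lower and 1, CNIH4, was higher.

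The 6 tested relatives in the family, among them ERBB4 and NRG4, had a median log2 fold change of -0.31 and none was called (edgeR; none had an unadjusted p under 0.05, and DESeq2 called none). CFC1, a Nodal co-receptor gene with an EGF-like domain, had -1.93, ERBB4 had -0.67 and NRG2 had -1.12, the 3 of smallest p. ERBB4, like ERBB3 a receptor for neuregulins, had 0.0592 to 0.363 FPKM in the LPS+LR21 libraries and 0.235 to 0.528 FPKM in the LPS libraries, below the other receptors in every library.

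Of 24 tested receptor inhibitors and trafficking genes, 24 did not pass (median -0.20; 3 had an unadjusted p under 0.05 and DESeq2 called 1). CBL, a ubiquitin ligase that marks activated EGFR for degradation, had 0.690, 0.700 and 0.681 FPKM in LR1_2, LR3 and LR4, against 1.48, 2.17 and 1.71 FPKM in the LPS libraries (log2 fold change -1.50, adjusted p = 0.214 by edgeR). EPS15, an endocytic adaptor, had a log2 fold change of -0.87. SPRED2, an inhibitor of the Ras and ERK cascade, had 14.9, 1.78 and 9.17 FPKM in LR1_2, LR3 and LR4, against 3.13, 2.43 and 2.82 FPKM in the LPS libraries. LR1_2 and LR4 were above and LR3 was below every LPS library, and SPRED2 passed without LR3 (adjusted p = 0.00793). SH3KBP1, an adaptor of CBL named for that call, passed without LR3 in the opposite direction (log2 fold change -1.62, adjusted p = 0.00884).

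Of 29 tested adaptors and kinases below the receptors, none passed (edgeR; 8 had an unadjusted p under 0.05, and DESeq2 called 0), with a median of -0.12. GAB2, a docking adaptor, had a log2 fold change of -1.33, EPS8, an actin-regulating substrate of EGFR, of 1.02, and AKT1, a kinase of the PI3K branch, of -1.06. Without LR3, 3 of the 29 passed, EPS8 (adjusted p = 0.0159) and VAV2 (0.0473) higher and AKT1 (0.0171) lower. Quality weights called 3 as well, EPS8 higher and AKT1 and GRB2 lower, but not VAV2. Of 25 tested transcripts that ERK signalling can induce, none passed (edgeR; 5 had an unadjusted p under 0.05, and DESeq2 called 0), with a median of -0.27. The immediate early transcription factor genes EGR3, MAFF and FOS had log2 fold changes of -1.60, -1.03 and -0.76. FOS, for example, had 316, 369 and 355 FPKM in LR1_2, LR3 and LR4, against 567, 599 and 448 FPKM in the LPS libraries. Without LR3, 4 of the 25 passed, EGR3 (adjusted p = 0.0197) and MAFF (0.0111) lower and EPHA2 (0.0456) and SPRED2, which is also on this list, higher. Quality weights called 5, all lower (EGR3, MAFF, FOS, DUSP1 and DUSP10), beside 4.32% of all tested genes.

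**Figure D5:**
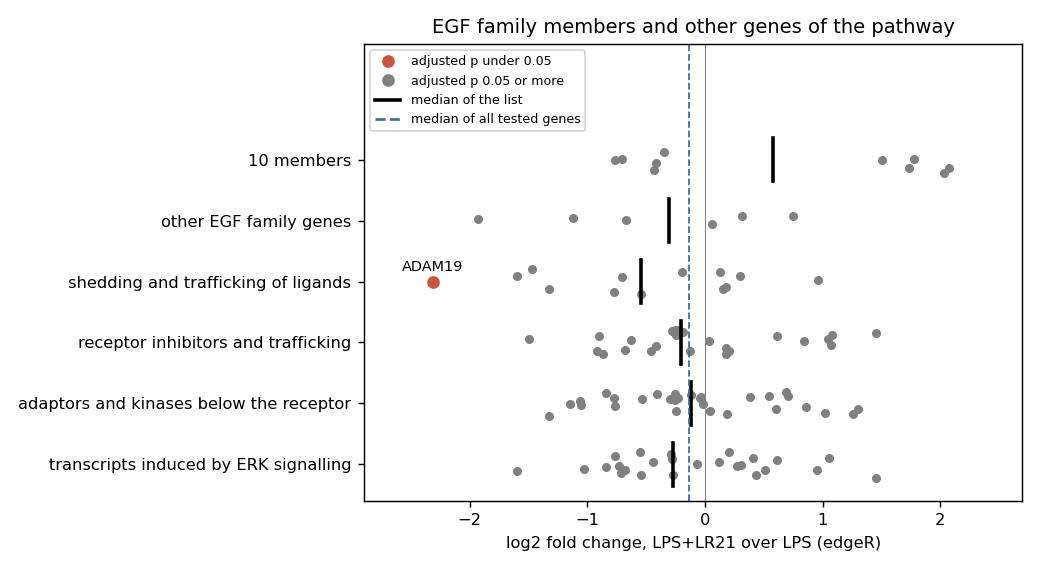
Fitted log2 fold changes (LPS+LR21 over LPS) of the 10 members and of the tested genes of 5 pathway lists, each point a gene, with list medians (black bars) and the median of all tested genes (dashed line, -0.14). The members split into 5 genes at 1.51 or above and 5 at -0.35 or below, and ADAM19 at -2.31 is the 1 gene past the threshold.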

How the data were processed

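RNA-seq was done on 6 libraries of polyadenylated RNA, per the labels' protocols. StringTie 1.3.4d, HISAT2 2.0.4, cutadapt 1.9 and edgeR appear, without a stated role, per the submitters' processing notes. Coordinates stand as deposited, with the build not given in the sources used here. The authors deposited whole-number counts without normalization, and FPKM values. Left out were 3 FPKM columns of LPS+LR21, whose names fit no one sample title. FPKM was instead computed anew in every library, using counts, library totals and each gene's length as worked out from the deposited LPS columns. For 9889 genes with at least 100 counts in each LPS library, 100% of LPS values lay within 5% of the deposited ones. Within 1% lay 66.4%. The lengths came from these same LPS columns, so this check could hardly fail. The computed LPS+LR21 values were not compared with deposited ones. The columns LR1_2, LR3 and LR4 served as 3 replicates; no label says if LR1_2 pools birds. Since libraries are not tied to separate birds, p-values reflect the spread among these samples alone, and that spread may be technical.

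The test was edgeR 4.0.16 (R 4.3.3) with filterByExpr, TMM factors and glmQLFTest without covariates, two-sided, with Benjamini-Hochberg adjustment over 20745 genes and a threshold of 0.05. The script was tested on simulated data. Alternatives used DESeq2 1.42.0 and limma 3.58.1, other scalings and filters, and each library left out. Members and lists were chosen with earlier results of these data known. Named were all members, the pathway genes past the threshold or else the 3 of smallest p per list, the neighbours of members within 1 Mb of each other, the 3 genes most correlated with the highest ligand and receptor among those with a symbol and a mean of at least 1 FPKM, EPCAM, CSF1R and markers at 0 in a group.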

Additional observations from a re-analysis of the deposited data

How the results depend on the processing

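With all libraries, 219 genes of the table passed (202 higher, 17 lower), with 0 members and 1 pathway gene. DESeq2 called 1361 genes, 4 members (EREG, EGFR, ERBB2 and ERBB3) and 2 pathway genes; library quality weights in limma-voom called 1956 genes, 5 members and 12 pathway genes, with LR3 at a weight of 0.334 against 1.08 to 1.45. Limma-trend on log2(FPKM + 0.1) and log2(FPKM + 1) called 441 and 330 genes, 0 members and 0 pathway genes. Library totals called 321 genes, 0 members and 0 pathway genes. DESeq2 size factors in edgeR, no filter on low counts and a mean of at least 1 FPKM also called 0 members. The share of calls that were higher was 92.2% with all libraries, 82.2% at a mean of at least 1 FPKM, 73.6% with DESeq2, 54.2% with quality weights and 55.8% without LR3. Leaving out 1 library gave 0 to 1945 genes, 0 to 5 members and 0 to 10 pathway genes, each highest without LR3 and 0 without any other (edgeR; 1643 to 2764 genes then had an unadjusted p under 0.05). Of the 5 members with higher fitted levels, none changed direction in 14 alternatives: EREG ranged from 1.78 to 2.64, AREG from 1.19 to 2.06, EGFR from 1.64 to 2.51, ERBB2 from 1.44 to 2.38 and ERBB3 from 1.33 to 2.26. TGFA stayed below 0. BTC turned to 0.68 with quality weights. When libraries were left out, HBEGF ranged from -1.20 to 0.053, EGF from -1.27 to 0.039 and NRG1 from -1.64 to 0.0086. Library totals moved the median of all genes by 0.15 on the log2 scale and turned no member. Causes were not tested. No paired analysis was possible because the LPS+LR21 columns do not carry the replicate numbers of the titles. A floor of 3 counts was 0.0659 to 0.0959 CPM.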
